A study of Homo sapiens with 6 samples.

Results

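Contactins and the L1 and NCAM molecules are immunoglobulin-superfamily adhesion proteins best known from neurons and glia, and 10 of their genes were followed among the 62703 genes of the count table: CNTN1, CNTN3, CNTN4, CNTN5, CNTN6, NRCAM, L1CAM, CHL1, NCAM1 and NCAM2. The rows were found by gene symbol. The set was selected on the higher level of the abundant CNTN1 in the comparison below, so the differences of the members between the groups are given as descriptions, with no test. Levels are CPM, counts scaled to the size of each library. The cells were HGC-27, an established human gastric cancer line grown with 10% fetal bovine serum, and messenger RNA was sequenced from 3 libraries of a stably transfected strain with a short hairpin RNA against GXYLT2 (shGXYLT2) and 3 libraries of cells with a control hairpin (shControl, genotype WT). All 6 libraries come from the same parental line, and the labels give neither the number of clones nor separate cultures. P-values therefore measure only the spread between these libraries, which may be technical. The series asks what knockdown of GXYLT2, an enzyme that adds xylose to the O-linked glucose of Notch EGF repeats, does to genes tied to proliferation, invasion and stemness.

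Contactins are held in the outer leaflet of the plasma membrane by a glycosylphosphatidylinositol (GPI) lipid anchor, carry immunoglobulin and fibronectin type III domains, and act in complexes with contactin-associated proteins, receptor tyrosine phosphatases and other adhesion molecules. CNTN1 and CNTN6 have been described as ligands of Notch receptors in the oligodendrocyte lineage. The L1 family (L1CAM, CHL1, NRCAM and NFASC) spans the membrane and binds ankyrin and the spectrin skeleton, and NCAM1 carries polysialic acid in the developing brain. L1CAM and CNTN1 have both been studied in carcinomas as molecules of migration and invasion.

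Library totals ran between 22188073 and 24898425 estimated counts in shGXYLT2 and between 17291138 and 22540099 in shControl. The targeted gene checked the labels: GXYLT2 had 5.27, 6.27 and 5.34 CPM in shGXYLT2, against 20.7, 22.8 and 20.2 CPM in shControl (log2 fold change -1.91, SE 0.109; adjusted p = 6.3e-10 in edgeR, whose quasi-likelihood fit over all tested genes gives every adjusted p below). For GXYLT2 the exact two-sided permutation test of log2 CPM gave p = 0.1, the smallest value that 3 libraries per group allow. Among shGXYLT2 libraries, replicate 3 stood farthest from the other libraries of its group. Its chi-square per degree of freedom was 7.84 and 9.94 against replicates 1 and 2, while those differed by 5.42. Values without replicate 3 are given where they move. The 5 mesenchymal markers summed to 3120 to 3390 CPM in shGXYLT2 and 3580 to 3810 CPM in shControl, most of it vimentin (VIM). Of these CDH2 was near 0, at 0.166 CPM in shGXYLT2 and 0.0338 CPM in shControl. The 7 epithelial markers of this gastric line summed to 4.58 to 5.54 CPM in shGXYLT2 and 5.10 to 6.62 CPM in shControl. CDH1 averaged 2.33 CPM in shGXYLT2 and 2.92 CPM in shControl, KRT8 1.78 and 1.57 CPM, and CLDN4 0.821 and 1.16 CPM. EPCAM averaged 0.109 CPM in shGXYLT2 and 0.151 CPM in shControl, and KRT18 0.0266 and 0.068 CPM in the same groups.

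To show what lies at the start sites of the 3 members that passed the threshold of the fit below, the RefSeq promoter windows (build GRCh38.p14, 250 bases before to 50 after the start, on the strand of the gene) of CNTN1, CNTN5 and L1CAM are printed below with each CG dinucleotide in capitals. The threshold served only to choose which windows are shown, because the set was selected on the same comparison of the groups. The windows of the other members were searched as well. The table held windows for 9 of the 10 members. The table gives CNTN1 2 starts on the plus strand, at chr12:40827934-40828233 and chr12:40908107-40908406; the CNTN5 window is chr11:99020699-99020998 on the plus strand, and the first of 2 for L1CAM is chrX:153875895-153876194 on the minus strand.
CNTN1, first start: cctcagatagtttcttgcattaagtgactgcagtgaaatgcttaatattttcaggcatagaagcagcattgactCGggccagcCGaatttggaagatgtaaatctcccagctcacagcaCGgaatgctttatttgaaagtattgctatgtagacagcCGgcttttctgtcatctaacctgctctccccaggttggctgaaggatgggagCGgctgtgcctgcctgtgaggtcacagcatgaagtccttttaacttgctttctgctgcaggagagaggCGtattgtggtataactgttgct
CNTN1, second start: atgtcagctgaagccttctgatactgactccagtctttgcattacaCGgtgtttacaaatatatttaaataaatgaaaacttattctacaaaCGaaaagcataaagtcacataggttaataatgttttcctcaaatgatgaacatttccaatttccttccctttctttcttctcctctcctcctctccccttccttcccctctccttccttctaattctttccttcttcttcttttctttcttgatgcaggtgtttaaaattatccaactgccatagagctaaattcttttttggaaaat
CNTN5: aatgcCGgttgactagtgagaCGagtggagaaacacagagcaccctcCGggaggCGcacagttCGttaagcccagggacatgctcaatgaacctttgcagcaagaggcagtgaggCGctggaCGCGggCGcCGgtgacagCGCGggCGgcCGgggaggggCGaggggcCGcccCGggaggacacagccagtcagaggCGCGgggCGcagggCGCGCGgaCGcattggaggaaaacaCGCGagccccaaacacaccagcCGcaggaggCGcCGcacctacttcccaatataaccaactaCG
L1CAM: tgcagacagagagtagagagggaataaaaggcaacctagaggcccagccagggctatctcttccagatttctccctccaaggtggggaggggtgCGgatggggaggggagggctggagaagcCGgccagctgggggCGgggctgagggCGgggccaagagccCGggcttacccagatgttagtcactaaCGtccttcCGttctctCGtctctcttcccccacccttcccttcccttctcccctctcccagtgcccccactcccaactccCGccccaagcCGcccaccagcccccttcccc

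The CNTN1 windows held 6 and 2 CG dinucleotides, the CNTN5 window 30 and the L1CAM window 10, beside a median of 14 over 35116 windows of 300 bases. Of all windows, 33.7% held fewer than the first CNTN1 window and 77.6% fewer than the CNTN5 window. The CNTN1 and L1CAM windows lie inside the GENCODE spans of these genes, downstream of the outermost annotated starts (base 40692442 of chromosome 12 for CNTN1), whereas the CNTN5 window covers that of CNTN5 (base 99020953 of chromosome 11), so their CG counts are not read against each other. The letters TGGGAA, the core bound by the Notch effector RBPJ, were searched on both strands: they were in 0 of the 2 CNTN1 windows, in the CNTN5 window once, 29 bases after the start, and in 1 of the 2 L1CAM windows, the one not printed, 204 bases before its start (offset -204), while 24.0% of all windows held them. Among the other members the letters were in both CNTN4 windows (offset -149 in the first, 3 and 10 in the second). They were also in the CNTN6 window (offset -43), and in no window of CHL1, CNTN3, NCAM2 or NRCAM. A match describes letters and not a bound site.

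CNTN1, a GPI-anchored contactin of axons and of the paranodal junction, had the highest read level of the members in both groups. It had 232, 237 and 189 CPM in shGXYLT2, against 96.3, 103 and 105 CPM in shControl. The groups did not overlap, and replicate 3 was the lowest of the shGXYLT2 libraries. The means were 219 ± 26.5 CPM in shGXYLT2 and 101 ± 4.55 CPM in shControl (SD, n = 3 each), a log2 fold change of 1.11 (SE 0.0768, 2.16-fold). Leaving out shGXYLT2 replicate 3 gave 1.21 on the log2 scale. Ordered from the highest log2 fold change, CNTN1 stood first among the 2082 genes that averaged at least 100 CPM and at place 111 among all 15693 tested genes. The set was selected for the rise of the abundant CNTN1, so these places restate that choice and are no separate result. In the order of mean CPM it stood at place 739 in shGXYLT2 and place 2079 in shControl. Because RNA was measured in bulk, more cells expressing a gene and more RNA per cell cannot be told apart.

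**Figure D1:**
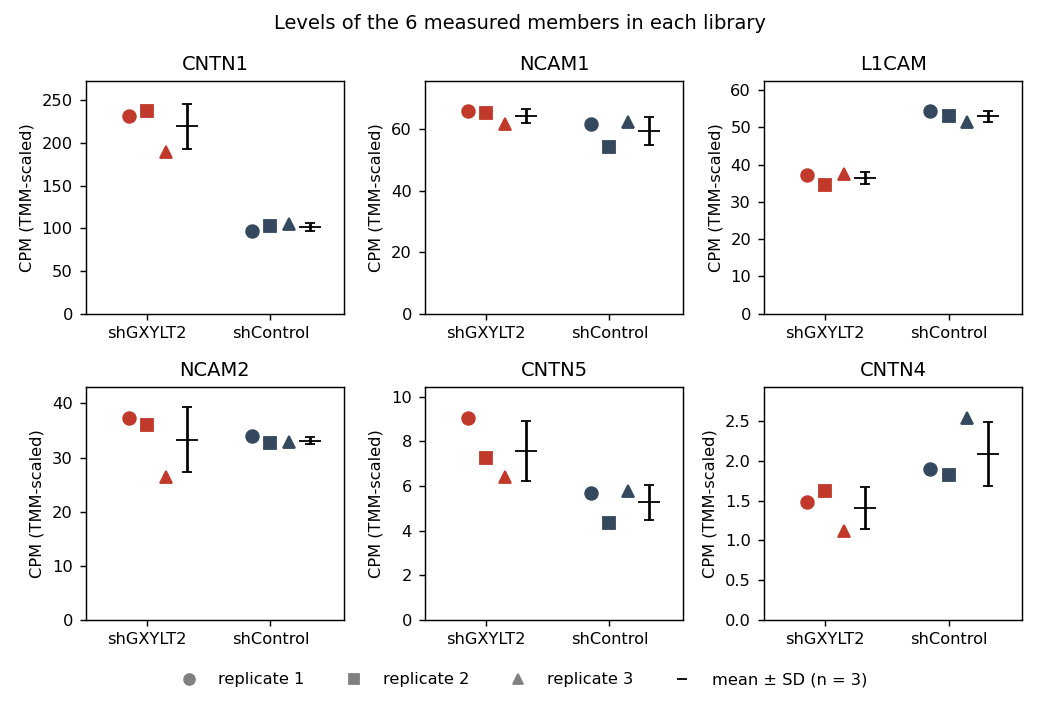
CPM of the 6 members that passed the filter on low counts, 1 panel per gene, with shGXYLT2 left of shControl; symbols are replicates and black bars the mean and SD (n = 3). CNTN1 separates widely (189 to 237 CPM in shGXYLT2, 96.3 to 105 CPM in shControl), L1CAM lies lower in shGXYLT2, and NCAM1 and NCAM2 overlap between the groups.

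CNTN5, a contactin of auditory and retinal circuits, was at a low level and higher in shGXYLT2. It had 9.07, 7.25 and 6.42 CPM in shGXYLT2, against 5.69, 4.34 and 5.76 CPM in shControl. The groups did not overlap, replicate 3 was again the lowest of shGXYLT2, and the log2 fold change was 0.52 (SE 0.155, 1.44-fold). CNTN4, a contactin that binds amyloid precursor protein, was lower still, with 37, 40 and 25 estimated counts in shGXYLT2 and 33, 31.09 and 58 in shControl. These gave 1.48, 1.63 and 1.12 CPM in shGXYLT2, against 1.90, 1.82 and 2.55 CPM in shControl. The groups again did not overlap, as in 30.4% of all tested genes, with shGXYLT2 the lower (log2 fold change -0.57, SE 0.245). The sign was opposite to that of CNTN1 and CNTN5, but CNTN4 did not pass the threshold of the fit at these low counts. Its log2 fold change was -0.39 without shControl replicate 3.

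L1CAM, the transmembrane founder of the L1 family, was lower in shGXYLT2. It had 37.2, 34.5 and 37.6 CPM in shGXYLT2, against 54.3, 53.1 and 51.4 CPM in shControl. The groups lay far apart for their spread, at 36.5 ± 1.68 CPM in shGXYLT2 and 53.0 ± 1.46 CPM in shControl (SD, n = 3 each; log2 fold change -0.54, SE 0.0693, 1.45-fold lower). L1CAM and CNTN1 therefore differed in opposite directions in the same 6 libraries. In contrast to the other members measured, L1CAM was not lowest in shGXYLT2 replicate 3.

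NCAM1, the neural cell adhesion molecule also known as CD56, had 65.8, 65.4 and 61.7 CPM in shGXYLT2, against 61.8, 54.1 and 62.3 CPM in shControl. The groups overlapped, and the log2 fold change was 0.11 (SE 0.0700), or 0.05 without shControl replicate 2. NCAM2, its paralog of the olfactory system, had 37.4, 36.1 and 26.4 CPM in shGXYLT2, against 33.9, 32.6 and 32.9 CPM in shControl. Here shGXYLT2 replicate 3 lay below every shControl library and the other shGXYLT2 libraries above them. The NCAM2 log2 fold change was 0.01 (SE 0.105) over all libraries and 0.15 without shGXYLT2 replicate 3, and its sign turned with other libraries left out (-0.08 without shGXYLT2 replicate 1 and -0.05 without shGXYLT2 replicate 2).

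The remaining members were at or near 0. CHL1, the close homolog of L1, had 0 counts in all 6 libraries, which at 3 counts per library allows up to 0.135 CPM in shGXYLT2 and up to 0.176 CPM in shControl, counting error only. CNTN3 had 1, 0 and 0 counts in shGXYLT2 and 0, 2 and 0 in shControl, and CNTN6 had 0 in every shGXYLT2 library and 0, 0 and 1 in shControl. NRCAM, the ankyrin-binding partner of neurofascin at nodes of Ranvier, had 2, 1 and 2 counts in shGXYLT2 and 3, 1 and 0 in shControl. A difference in these 4 genes was not detectable at this depth. Of the relatives outside the set, CNTN2 had 10, 13 and 11 counts in shGXYLT2 and 5, 10 and 8 in shControl (edgeR adjusted p = 0.80), and NFASC, with 9, 7 and 8.03 counts in shGXYLT2 and 8, 5 and 14 in shControl, did not pass the filter.

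Of the 10 members, 6 passed the filter and were fitted with all genes. Among all 15693 tested genes 12.2% passed the edgeR threshold of 0.05, 5.31% upward and 6.84% downward, and in 30.4% the groups did not overlap. Of the 6 fitted members 2 passed upward (CNTN1 and CNTN5) and 1 downward (L1CAM), and 4 had groups that did not overlap; since the set was selected on this contrast, nothing is read from these shares. The CNTN5 pass was lost with DESeq2 or without shGXYLT2 replicate 1 or 2 or any of the 3 shControl replicates.

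Scaled per length, the order of the members differed between the groups. RPKM here is CPM per kilobase of the deposited gene length, whose definition is not given in the sources used here. In shGXYLT2 the order was CNTN1 (38.7 ± 4.68 RPKM), NCAM1 (21.5 ± 0.764), L1CAM (7.10 ± 0.327), NCAM2 (4.14 ± 0.748), CNTN5 (1.99 ± 0.357) and CNTN4 (0.271 ± 0.05 RPKM; SD, n = 3 each), and no neighbours in it overlapped. In shControl NCAM1 (19.8 ± 1.54 RPKM) stood before CNTN1 (17.9 ± 0.803 RPKM), with libraries of 18.1 to 20.8 and 17 to 18.5 RPKM that overlapped, followed by L1CAM (10.3 ± 0.284), NCAM2 (4.12 ± 0.0799), CNTN5 (1.38 ± 0.212) and CNTN4 (0.402 ± 0.0776 RPKM). In CPM, without length, CNTN1 led in both groups. CNTN1 made up 50.1% to 54.2% of the summed RPKM of the 10 members in shGXYLT2 libraries and 31.3% to 34.8% in shControl libraries.

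**Figure D2:**
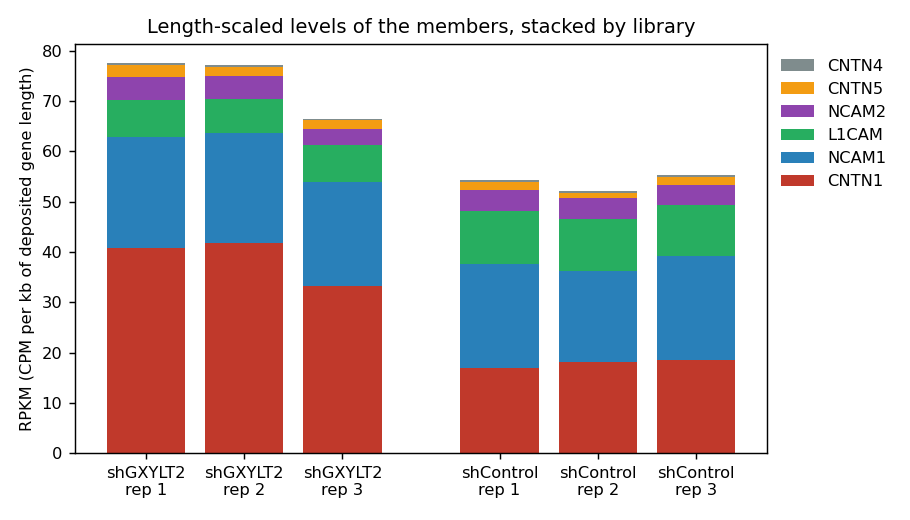
RPKM (CPM per kilobase of deposited gene length) of the 6 measured members stacked in each library, shGXYLT2 libraries on the left and shControl libraries on the right. The CNTN1 block is 33.3 to 41.8 RPKM in shGXYLT2 and 17 to 18.5 RPKM in shControl, and the NCAM1 block is 20.6 to 22 RPKM in shGXYLT2 and 18.1 to 20.8 RPKM in shControl.

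The members lie on 6 chromosomes (GENCODE 29, GRCh38). CNTN1 (ENSG00000018236) spans bases 40692442 to 41072418 of chromosome 12 on the plus strand. CHL1, CNTN6 and CNTN4 follow each other on the plus strand near the tip of the short arm of chromosome 3, with gaps of 0.683 and 0.695 Mb, and of these CNTN4 alone had more than 1 count in any library. CNTN3 lies on the same chromosome, 1.26 Mb from the targeted GXYLT2. CNTN5 (1337933 bases from start to end) and NCAM1 share chromosome 11, NCAM2 is on chromosome 21, NRCAM on chromosome 7 and L1CAM, with 24661 bases the shortest of the set, on the X chromosome.

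Within 1 Mb of CNTN1 the annotation lists 23 other genes, of which 2 were expressed enough to be tested. LRRK2, the kinase mutated in familial Parkinson disease, ends 323.2 kb before CNTN1. It had 16.66, 16.45 and 12.17 CPM in shGXYLT2, against 10.52, 9.843 and 11.17 CPM in shControl, so the groups did not overlap and replicate 3 was again the lowest of shGXYLT2. It rose by a log2 fold change of 0.52 (SE 0.121, edgeR adjusted p = 0.0076; 0.052 without shControl replicate 2, and 8.5e-05 to 0.052 over the alternatives). SLC2A13, a proton-coupled inositol transporter, averaged 40.2 ± 2.55 CPM in shGXYLT2 and 35.4 ± 0.952 CPM in shControl (SD, n = 3 each; edgeR adjusted p = 0.13). The other 21 genes, which include PDZRN4 and the mucin gene MUC19, had at most 31 counts summed over the 6 libraries. GXYLT1, the paralog of the target, begins 1.01 Mb beyond CNTN1, just outside this window, and was named after its values were seen. It averaged 35.4 ± 4.39 CPM in shGXYLT2 and 73.3 ± 3.35 CPM in shControl (SD, n = 3 each). Its log2 fold change was -1.05, so GXYLT1 was lower in the same libraries as the targeted GXYLT2. The part of GXYLT1 in the other differences was not tested.

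Reads of overlapping genes bear on NCAM1. The genes on the opposite strand of NCAM1 held counts equal to 2.36% of its own, and those of L1CAM 0.0355%; no gene overlapping CNTN1 lies on the opposite strand. The deposited NCAM1 values were not whole in 3 libraries, and in shGXYLT2 replicates 1 and 2 the rest of the count was found in the antisense gene NCAM1-AS1: 1646.7 and 24.3 sum to 1671, and 1606.35 and 26.65 sum to 1633. NCAM1-AS1 itself averaged 1.05 ± 0.0756 CPM in shGXYLT2 and 0.970 ± 0.110 CPM in shControl (SD, n = 3 each; edgeR adjusted p = 0.86). The antisense genes of CHL1 and CNTN4 had 0 counts, and L1CAM-AS1 had 2 counts, both in shControl replicate 3.

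The genes that carry, bind or process these molecules were counted from lists of 153 genes, of which 123 were tested. Of these 9 rose and 13 fell, 17.9% against 12.2% of all tested genes, with a median log2 fold change of 0.021 beside -0.0057 over all genes. The numbers without 1 library ran from 4 to 18 for the rises and from 6 to 17 for the falls: 4 rises without shControl replicate 1, 5 without shControl replicate 3 and 18 without shGXYLT2 replicate 3; 6 falls without shControl replicate 1, 6 without shControl replicate 2 and 8 without shControl replicate 3. Of the 22 called genes 10 passed under all 12 alternatives.

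Among the contactin partners 1 of 13 tested genes rose and 1 fell, 15.4% beside 12.2% of all tested genes. PTPRG, a receptor tyrosine phosphatase that binds contactins, had 28.9, 29.6 and 31.1 CPM in shGXYLT2, against 42.8, 40.4 and 42.4 CPM in shControl. It fell without overlap by 0.49 on the log2 scale (SE 0.0723, edgeR adjusted p = 1.5e-04). The receptor NOTCH2 rose to 242 ± 4.41 CPM in shGXYLT2, against 199 ± 2.09 CPM in shControl (SD, n = 3 each; edgeR adjusted p = 0.0017). CNTNAP1, the obligate partner of CNTN1 at paranodal junctions, did not pass, and CNTNAP2, CNTNAP4 and CNTNAP5 had at most 2 counts in any library. The near-identical CNTNAP3 and CNTNAP3B are uncertain, since the counting could split their reads, and did not pass either.

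Of 23 tested partners of L1 and NCAM 2 rose and 5 fell, 30.4% beside 12.2% of all tested genes. The falls included EZR and MSN, linkers of membrane proteins to actin that bind the L1CAM tail: EZR averaged 104 ± 5.65 CPM in shGXYLT2 and 140 ± 10.0 CPM in shControl (SD, n = 3 each; edgeR adjusted p = 2.4e-04), and MSN 190 CPM in shGXYLT2 and 228 CPM in shControl (adjusted p = 0.0066). ITGB3, an integrin chain bound by L1CAM, fell to 1.11 CPM in shGXYLT2, against 2.08 CPM in shControl (adjusted p = 0.019). NRP1, a semaphorin co-receptor that pairs with L1CAM, and the endocytic adaptor NUMB each rose by 0.28 on the log2 scale (adjusted p = 0.021 and 0.0080). The call of MSN was lost without shControl replicate 1 or 2 (adjusted p at most 0.062), and that of NUMB without shControl replicate 1 or 3 (at most 0.076). ITGB3 was lost with DESeq2 and without shGXYLT2 replicate 2 or any of the 3 shControl replicates (at most 0.074), and NRP1 without shGXYLT2 replicate 1 or any of the 3 shControl replicates (at most 0.14). The polysialyltransferases ST8SIA2 and ST8SIA4 had 0 and 1 counts in all libraries together.

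Of 7 tested genes of shedding and polysialylation 1 rose, 14.3% beside 12.2% of all tested genes. It was NCSTN, a gamma-secretase subunit, at 91.7 CPM in shGXYLT2, against 78.3 CPM in shControl (edgeR adjusted p = 0.020). The call of NCSTN was lost without shGXYLT2 replicate 1 or any of the 3 shControl replicates and with the replicate number as a block (adjusted p at most 0.11). ADAM10, a protease that sheds L1CAM, averaged 128 CPM in shGXYLT2 and 130 CPM in shControl (adjusted p = 0.85). All 31 genes of the GPI anchor pathway were tested, and 1 rose: PIGY, which shares its transcript with PYURF and so is uncertain, at 42.7 CPM in shGXYLT2 and 36.4 CPM in shControl (adjusted p = 0.044). The call of PIGY was lost with DESeq2, without any 1 of the 6 libraries and with the replicate number as a block (adjusted p at most 0.18). The share called in the GPI anchor list was 3.23%, beside 12.2% of all tested genes.

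Of 23 other adhesion molecules of the immunoglobulin superfamily that were tested, 1 rose and 5 fell, 26.1% beside 12.2% of all tested genes. LSAMP, a GPI-anchored molecule of the limbic system, had 2.96, 3.38 and 2.38 CPM in shGXYLT2, against 7.13, 6.15 and 7.43 CPM in shControl. It fell by 1.25 on the log2 scale (SE 0.163, edgeR adjusted p = 3.4e-05), with no overlap. THY1, a small GPI-anchored glycoprotein, averaged 47.2 CPM in shGXYLT2 and 65.3 CPM in shControl, and the Slit receptor ROBO2 34.4 CPM in shGXYLT2 and 48.5 CPM in shControl; both fell (adjusted p = 3.9e-04 and 4.4e-04). F11R, a junctional adhesion molecule, rose to 2.89 CPM in shGXYLT2, against 1.53 CPM in shControl (adjusted p = 0.0096; 0.058 without shControl replicate 1).

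Of 26 tested synaptic adhesion genes 3 rose and 2 fell, 19.2% beside 12.2% of all tested genes. SLITRK6, a leucine-rich transmembrane protein of neurite growth, had 30.9, 33.1 and 24.8 CPM in shGXYLT2, against 13, 14.4 and 16.5 CPM in shControl. Its groups lay apart, with a log2 fold change of 1.01 (SE 0.112, edgeR adjusted p = 6.5e-06). PTPRD, a receptor phosphatase of presynaptic terminals, rose to 89.2 ± 6.81 CPM in shGXYLT2, against 63.4 ± 2.83 CPM in shControl, and the latrophilin ADGRL3 to 43.4 ± 0.944 CPM in shGXYLT2, against 31.4 ± 1.13 CPM in shControl (SD, n = 3 each). FLRT2, a ligand of latrophilins and UNC5 receptors, and NLGN2, a neuroligin of inhibitory synapses, fell, with log2 fold changes of -0.31 and -0.33. The NLGN2 call was lost without shGXYLT2 replicate 1 or any of the 3 shControl replicates (adjusted p at most 0.069).

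**Figure D3:**
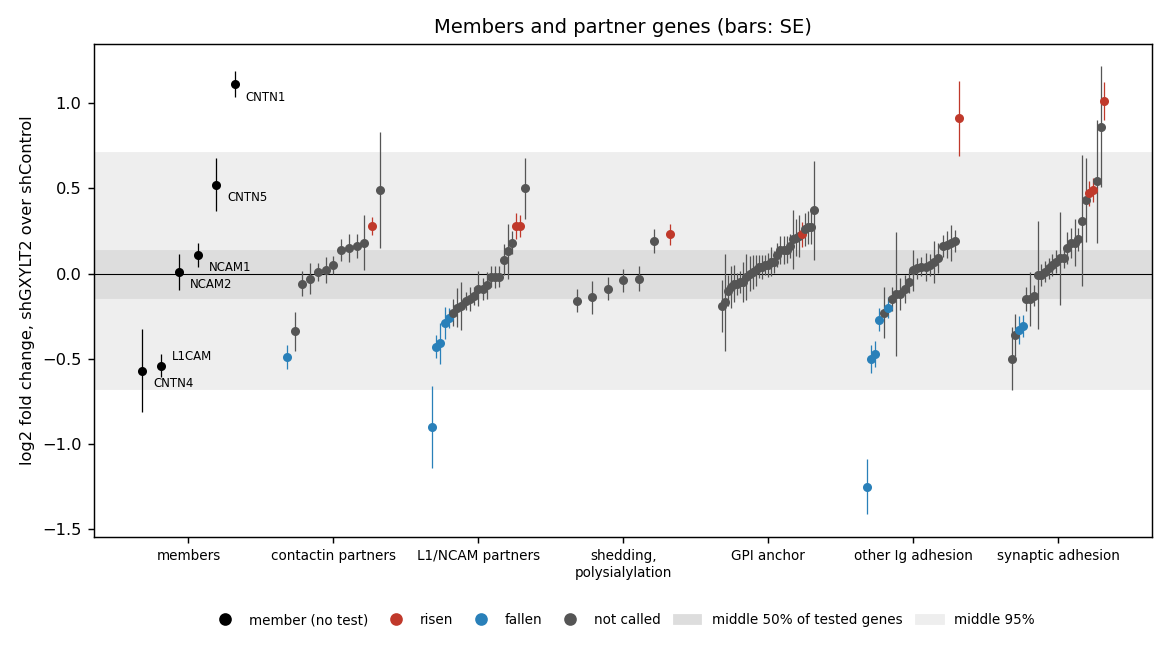
Log2 fold change of shGXYLT2 over shControl with its SE for the members and for the tested genes of each partner list, coloured by the edgeR call for partner genes only; the shaded bands hold the middle 50% (-0.14 to 0.13) and 95% (-0.68 to 0.71) of all 15693 tested genes. CNTN1 lies above the wide band, while the GPI anchor genes gather around 0.

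The 5 protein-coding genes whose log2 CPM ran most like that of CNTN1 were UNC5C, a netrin receptor, CBLB, a ubiquitin ligase of receptor signalling, DEPTOR, an inhibitor of mTOR, SEMA6A, a transmembrane semaphorin, and GGH, a folate hydrolase. Pearson r was 0.9936 to 0.9986 over 6 libraries, and the ranking covered the 9606 genes at or above a mean log2 CPM of 3. The CNTN1 values of the 2 groups did not overlap, so r describes mainly the difference between the groups and the place of shGXYLT2 replicate 3. UNC5C had 47.7, 47.5 and 42.9 CPM in shGXYLT2, against 33.1, 33.6 and 34.5 CPM in shControl. The differences of these genes were smaller than that of CNTN1, with log2 fold changes of 0.25 to 0.51. Among the members, r with CNTN1 was 0.834 for CNTN5, 0.662 for NCAM1, 0.149 for NCAM2, -0.676 for CNTN4 and -0.990 for L1CAM.

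**Figure D4:**
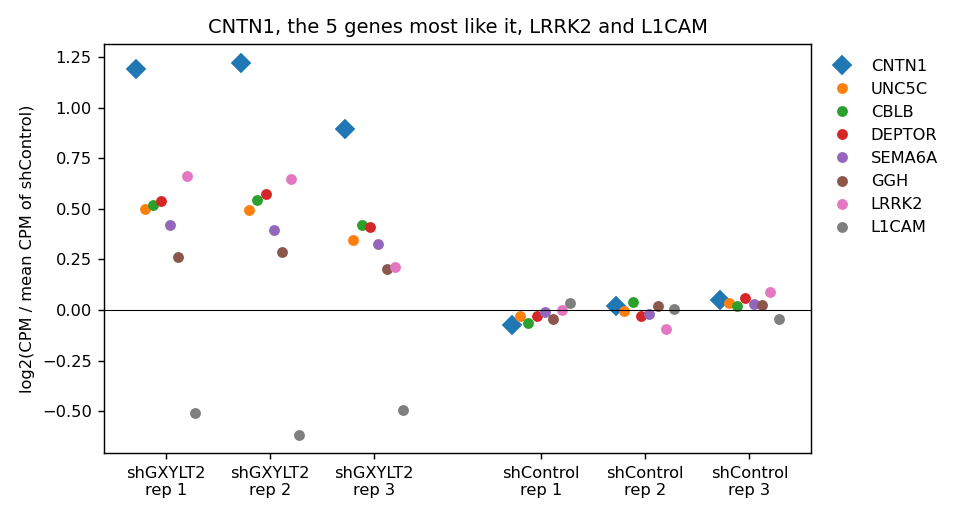
Log2 ratio of CPM to the shControl mean for CNTN1, the 5 genes most like it, the neighbour LRRK2 and L1CAM, in each library, with shGXYLT2 on the left. CNTN1 and the genes like it are lower in shGXYLT2 replicate 3 than in the other shGXYLT2 libraries, and L1CAM is below the shControl mean in all 3 shGXYLT2 libraries.

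Because these adhesion molecules mark neural and neuroendocrine cells, markers of those types were read in the same libraries. The 12 neuronal markers summed to 69.4 to 77.5 CPM in shGXYLT2 and 72.8 to 73.4 CPM in shControl, most of it from the tubulin TUBB3. NEFL averaged 1.18 CPM in shGXYLT2 and 0.866 CPM in shControl, and RBFOX3 0.783 and 0.766 CPM in the same groups. ELAVL4 was at 0 in all libraries, and STMN2 averaged 0.0133 CPM in shGXYLT2 and 0 in shControl. Of 5 tested neuronal markers 1 rose, 20% beside 12.2% of all tested genes, and nothing is read from a share that rests on 1 gene. It was SYT1, a synaptic vesicle calcium sensor, at 15.6 CPM in shGXYLT2, against 10.4 CPM in shControl (edgeR adjusted p = 0.0015). The 7 neuroendocrine markers summed to 4.12 to 5.03 CPM in shGXYLT2 and 2.02 to 2.47 CPM in shControl, and CHGA was near 0. All 7 were at very low levels, so nothing is read from this sum, and INSM1, NEUROD1 and SYP are described under the other observations. The 7 glial markers summed to 2.48 to 3.32 CPM in shGXYLT2 and 3.08 to 5.45 CPM in shControl, most of it OLIG2. OLIG2 averaged 2.30 CPM in shGXYLT2 and 3.57 CPM in shControl (edgeR adjusted p = 0.08), and S100B was at 0. The 5 leukocyte markers summed to at most 0.855 CPM in shGXYLT2 and 0.820 CPM in shControl, with CD3E at 0. Of 4 tested mesenchymal markers 1 rose and 2 fell, 75% beside 12.2% of all tested genes, and nothing is read from a share over so few genes. FN1 rose, to 78.7 CPM in shGXYLT2, against 38.7 CPM in shControl (edgeR adjusted p = 2.3e-09). COL1A1 fell, to 542 CPM in shGXYLT2, against 824 CPM in shControl (edgeR adjusted p = 2e-06), and SPARC fell as well. The part of any of these markers in the CNTN1 difference was not tested.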

How the data were processed

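RNA of 3 shGXYLT2 and 3 shControl HGC-27 libraries, grouped by sample title, was analysed. Per the labels' protocols a stranded mRNA kit was used. The authors deposited estimated counts by gene without normalization, and 12.3% of the values were not whole. The submitters' processing notes name fastp, HISAT2, StringTie and the build GRCh38.p13. The sources used here do not name the versions, the counter or its use of strand. The deposited gene length, also undefined there, served for RPKM (CPM per kilobase) alone.

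Estimated counts were rounded to whole numbers. In R 4.3.3, edgeR 4.0.16 was run with filterByExpr by group, TMM factors and the robust quasi-likelihood test, group being the sole term over the 6 libraries. P-values are two-sided, with Benjamini-Hochberg adjustment across the 15693 tested genes, and calls need an adjusted p under 0.05. The exact permutation test of GXYLT2 alone has no adjustment. CPM are TMM-scaled. The fit was tested on simulated counts. Alternatives were upper-quartile factors, library totals alone, DESeq2 1.42.0, no filter, a filter at a mean of 1 CPM, each library left out, and the replicate number as a block.

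The members and lists were chosen with earlier results of these data known. By rule the named genes are the members, GXYLT2, CNTN2, NFASC, up to 3 risen and 3 fallen genes of each partner list by adjusted p, the 5 protein-coding genes most correlated with CNTN1 on log2(CPM + 0.5), tested genes within 1 Mb of CNTN1, and antisense genes of members. Other genes named were picked after their values were seen. Positions came from GENCODE 29 on GRCh38, to which 92.9% of gene identifiers matched, and promoters from RefSeq (GRCh38.p14).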

Additional observations from a re-analysis of the deposited data

How the results depend on the processing

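Among the members, CNTN1 had a log2 fold change of 1.05 to 1.21 with 1 library left out and 1.11 to 1.13 with the other scalings, filters and DESeq2; those of CNTN4, CNTN5, L1CAM and NCAM1 kept their sign under all 12 alternatives. NCAM2 turned sign, at -0.08 to 0.15 with 1 library left out and -0.01 with the replicate block; the cause was not tested. With 1 library left out the genes called in the whole table numbered 397 to 1038 upward and 563 to 1309 downward, against 833 and 1074 with all libraries, and the partner genes 4 to 18 upward and 6 to 17 downward, against 9 and 13; fewer libraries entered these fits. Those that moved the counts of the whole table by over 1.5 times left out shControl replicate 1 (399 rises and 591 falls), 2 (455 and 697) or 3 (397 and 563). GXYLT2 ran from -2.0 to -1.86. No called partner gene changed sign under any alternative.

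By the replicate numbers of the sample titles, which differ from those in the column names for some libraries, same-numbered libraries did not deviate together from their group means (r of -0.000174, -0.079 and -0.0778 across genes), so the title numbers were not taken to pair the libraries. With the title number as a replicate block the table held 606 rises and 865 falls, the partner lists 7 and 11, CNTN1 was at 1.10 and L1CAM at -0.54. Members at fewer than 4 counts per library (CNTN3, CNTN6, NRCAM and CHL1) are below what this depth can compare.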

Other observations

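Of 4 tested neuroendocrine markers 3 rose, all at very low levels, while 5.31% of all tested genes rose. INSM1 and NEUROD1 passed the filter on low counts through their higher shGXYLT2 libraries, so nothing is read from this count. For the same reason these 2 genes are described without their adjusted p-values. With the filter at a mean of 1 CPM none of the 3 was tested. INSM1, a zinc finger factor of endocrine differentiation, had 0.639, 0.896 and 0.898 CPM in shGXYLT2, against 0.115, 0.352 and 0.176 CPM in shControl. NEUROD1, a basic helix-loop-helix factor of neurons and endocrine cells, had 0.959, 1.34 and 1.35 CPM in shGXYLT2, against 0.690, 0.293 and 0.308 CPM in shControl. SYP, a synaptic vesicle protein, averaged 1.30 ± 0.172 CPM in shGXYLT2 and 0.592 ± 0.0212 CPM in shControl (SD, n = 3 each; edgeR adjusted p = 0.023). DESeq2 gave no adjusted p for INSM1 and NEUROD1 and did not call SYP (adjusted p = 0.081). The SYP call was lost without shGXYLT2 replicate 1 or 3 or any of the 3 shControl replicates (edgeR adjusted p at most 0.087). Those of INSM1 and NEUROD1 were also lost with some libraries left out. The part of these markers in the differences of the adhesion genes was not tested.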
